A study of Homo sapiens with 9 samples.

Results

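The MYC family and MAX network genes examined here were the transcription factor genes MYC, MYCN and MYCL, their partner MAX, the antagonists MXD1, MXD3, MXD4, MXI1 and MNT, and the MAX-like partner MLX. They were picked out of the table by gene symbol, as 10 of its 60603 genes, from a list drawn up with earlier results of these data known, and all 10 were among the 16093 genes that passed the filter on low counts. RNA was measured by bulk RNA sequencing in TC32, an established cell line of Ewing sarcoma, a bone and soft tissue tumor driven by the fusion transcription factor EWS::FLI1. The 9 libraries fell into 3 groups of 3 labelled biological replicates, all harvested at 30 h. Cells labelled siEF received an siRNA that spans the breakpoint of the fusion, cells labelled siNEG were given a nonspecific siRNA, and Media is the treatment label of the third group. All libraries share the wild-type genotype label, medium with 10% FBS and L-glutamine, polyadenylated RNA and a single batch number. The label on plating over siRNA also stands on the Media libraries, so how those cells were handled is not settled by the sources used here. The replicates come from 1 cell line, and the P values therefore measure the spread between these samples and not between tumors.

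MYC, MYCN and MYCL are basic helix-loop-helix leucine zipper proteins that bind DNA only as a pair with MAX, mostly at the E-box CACGTG, where they raise transcription of genes for growth, metabolism and ribosome production. The MXD proteins, MXI1 and MNT compete for MAX, bind the same E-box and recruit the SIN3 corepressor with its histone deacetylases, so the network is usually described as a balance between activating and repressing pairs. MLX resembles MAX, pairs with MLXIP and MLXIPL, which respond to glucose metabolites, and can also pair with some of the MXD proteins and MNT.

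Promoter windows reaching from 250 bases before to 50 bases after the start site were available in RefSeq (GRCh38.p14) for 9 of the 10 genes, as 12 windows. The table holds no window for MYC. The E-box CACGTG, a palindrome searched on both strands, was present in 7.26% of all 35116 promoters and in the windows of MXD4, MNT and MLX, which are shown because they are the members whose window carries the binding site of the network itself. The MYCN window is shown because it was the only member window with TTTGGCGC, an E2F-type sequence found on either strand in 0.652% of all promoters. That motif and the choice of windows were made after the promoters had been seen, and a match is a description of the letters and not evidence of binding. Capitals mark CACGTG in the first 3 sequences and TTTGGCGC in the last, each written 5′ to 3′ on the strand of the gene. The windows are chr4:2262060-2262359 on the minus strand (MXD4), chr17:2401011-2401310 on the minus strand (MNT), chr17:42566850-42567149 on the plus strand (MLX) and chr2:15940300-15940599 on the plus strand (MYCN).
MXD4: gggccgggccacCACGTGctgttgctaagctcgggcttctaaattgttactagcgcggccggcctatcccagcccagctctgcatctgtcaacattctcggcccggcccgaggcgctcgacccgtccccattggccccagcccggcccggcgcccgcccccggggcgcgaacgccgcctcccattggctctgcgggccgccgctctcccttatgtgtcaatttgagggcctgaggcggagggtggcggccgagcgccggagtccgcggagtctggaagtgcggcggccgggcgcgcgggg
MNT: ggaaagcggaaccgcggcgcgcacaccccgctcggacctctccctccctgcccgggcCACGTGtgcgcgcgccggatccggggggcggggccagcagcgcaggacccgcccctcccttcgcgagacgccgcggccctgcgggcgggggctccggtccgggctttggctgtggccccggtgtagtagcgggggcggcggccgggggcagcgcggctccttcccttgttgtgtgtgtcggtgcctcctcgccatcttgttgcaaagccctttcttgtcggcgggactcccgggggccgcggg
MLX: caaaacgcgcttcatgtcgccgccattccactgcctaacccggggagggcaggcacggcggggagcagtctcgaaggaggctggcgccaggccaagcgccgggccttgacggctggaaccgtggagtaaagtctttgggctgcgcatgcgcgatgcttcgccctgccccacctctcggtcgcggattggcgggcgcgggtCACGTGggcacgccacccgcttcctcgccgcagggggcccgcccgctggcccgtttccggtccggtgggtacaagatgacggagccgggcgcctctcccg
MYCN: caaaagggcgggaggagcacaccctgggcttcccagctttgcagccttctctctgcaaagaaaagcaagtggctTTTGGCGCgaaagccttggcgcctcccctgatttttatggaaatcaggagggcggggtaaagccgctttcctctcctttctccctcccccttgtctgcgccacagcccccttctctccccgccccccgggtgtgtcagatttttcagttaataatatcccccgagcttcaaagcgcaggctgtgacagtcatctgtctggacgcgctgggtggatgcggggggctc

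The E-box lay 238 bases before the start site in MXD4, 193 in MNT and 50 in MLX. The windows of MYCL, MAX, MXD1, MXD3, MXI1 and MYCN held no CACGTG, which says only that these letters are not in them. GGAA, the core that FLI1 and other ETS factors recognize, was in every member window, as in 95.5% of all promoters. Its tandem repeat GGAAGGAA occurred on either strand in 3.67% of all promoters and, among the members, only in 1 of the 2 windows of MAX. The GC content of the member windows ran from 55.0% to 76.0%, against a median of 58.7% over all promoters.

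The libraries held between 20727706 and 33134581 expected counts. NR0B1, which the fusion induces, fell in siEF against siNEG with a log2 fold change (log2FC) of -2.97, and PHLDA1, which it represses, rose by 5.23. FLI1, whose reads include those of the fusion, fell by 0.35 on the log2 scale (adjusted P = 2.88e-05). The authors report checking the silencing by qPCR, which is not part of these counts. In siNEG against Media, FLI1 also fell by 0.26 (adjusted P = 0.00347) and NR0B1 by 0.37 (adjusted P = 0.00105). There 4 of 6 Ewing sarcoma markers were lower, beside 5.96% of all genes tested. The summed level of 6 Ewing sarcoma markers lay between 365.4 and 381.7 CPM (expected counts scaled to a common library size) in siEF. It lay between 2239 and 2359 in siNEG and between 2431 and 2551 in Media. In siEF against siNEG 5 of the 6 fell, beside 31.7% of all genes tested, whereas CD99 rose. CCND1 made up most of the summed level in siNEG, at a mean of 1868 CPM, and in Media, at 1920. In siEF it was at 95.4, below CD99 at 189.1. The summed level of 6 markers of blood, endothelium and epithelium was far lower, between 8.62 and 10.01 CPM in siEF, 4.45 and 7.55 in siNEG and 6.20 and 7.02 in Media. Of these 6, 4 were tested, of which 2 rose in siEF against siNEG (CD68 and EPCAM), beside 33.6% of all genes, and PECAM1 fell, beside 31.7%. EPCAM had 13, 9 and 9 counts in siEF, 1, 3 and 0 in siNEG and 13, 10 and 13 in Media. It did not pass in siEF against Media (0.02, adjusted P = 0.97) and was lower in siNEG against Media (-3.145, adjusted P = 0.0039). PTPRC and CD3E were at 0 in siEF, and CD3E in every group. The part of these 6 markers in the results was not tested. Fewer cells of a type and less RNA per cell cannot be told apart in bulk RNA.

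The question for each gene was whether its transcript changed when the fusion was silenced, with siNEG as the control and Media as a second control. In siEF against siNEG, MYC and MYCN fell, MXD4 rose 11.1-fold and MNT 2.03-fold, MXD1 and MXI1 rose by less, MLX fell slightly, and MYCL, MAX and MXD3 did not pass the test. A gene passed at an adjusted P under 0.01 in edgeR's quasi-likelihood test, and it was called a target where its log2 fold change was also beyond 1 in either direction. Of the 10 members, 4 were higher, beside 33.6% of all genes tested, and 3 were lower, beside 31.7%. Targets were 2 higher members, beside 17.1% of all genes, and 2 lower members, beside 11.7%. These shares were near those of all genes or rested on 2 members each, and they are no result about the set as a whole. Their median log2 fold change was -0.07, and that of all genes tested was 0.05. The siEF libraries lay entirely above siNEG for 4 members and entirely below for 4, with overlap for MAX and MXD3, while 76.9% of all genes had no overlap.

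**Figure D1:**
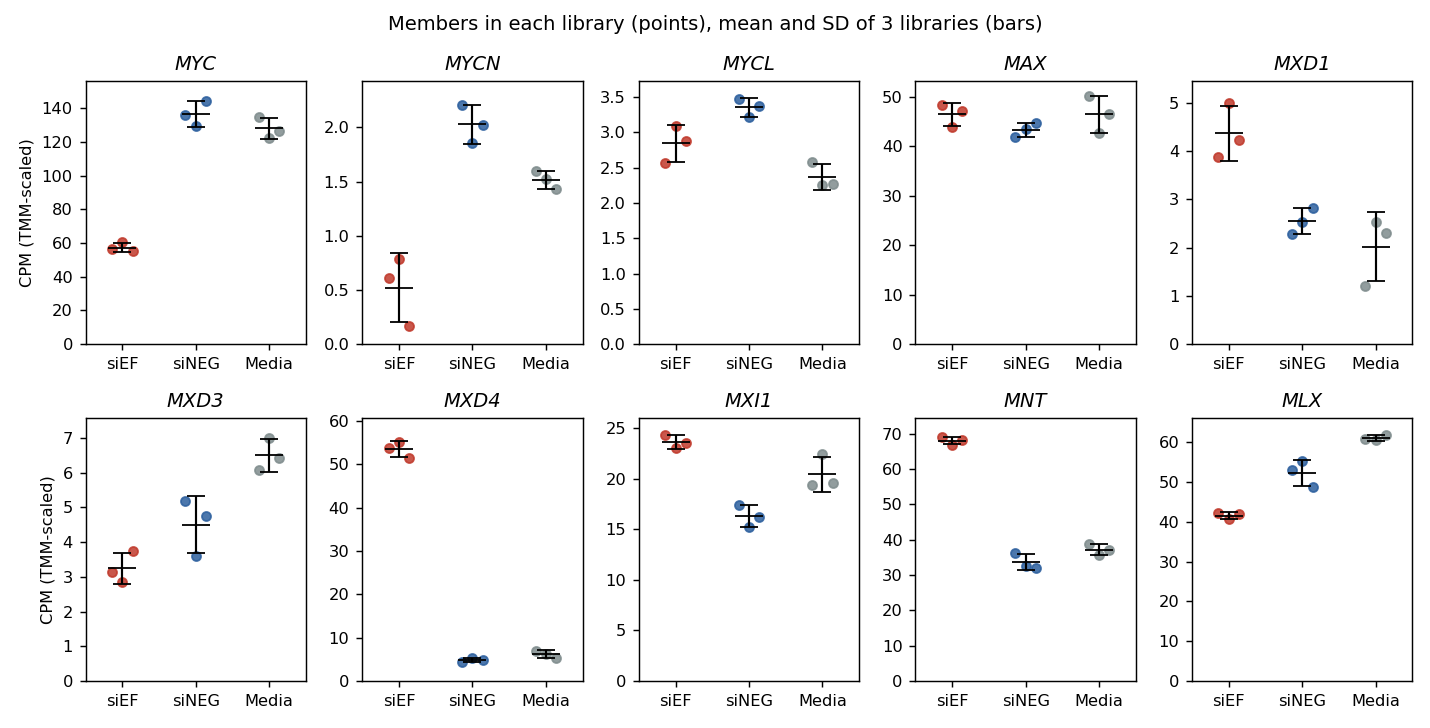
CPM of each member (vertical axes, TMM-scaled, from 0) in the 3 siEF, 3 siNEG and 3 Media libraries (points), with the mean and SD of the 3 libraries (bars). MYC and MYCN were lower in siEF than in all 6 other libraries, MXD4 and MNT were higher than in all 6, and MAX lay at a like level in the 3 groups.

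MYC is the most widely expressed activator of the network and a common oncogene. It is on chromosome 8 from 127735434 to 127742951 on the plus strand of GRCh38, with 3 exons in its canonical transcript (GENCODE release 44). It had 1556, 1239 and 1610 counts in siEF replicates 1 to 3, 4308, 4383 and 4499 in siNEG and 4134, 3865 and 3622 in Media. On the CPM scale these were 56.2, 60.7 and 55.2 in siEF, 136, 129 and 144 in siNEG and 135, 123 and 127 in Media. Every siEF library was below every control library, and siNEG overlapped Media. Against siNEG the log2FC was -1.25 (SE 0.057, adjusted P = 5.21e-12), which left MYC at 42.0% of its siNEG level.

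MYCN is the family member known from neuroblastoma, and here it was a minor transcript. It spans 15940550 to 15947007 on chromosome 2. Counts were 17, 16 and 5 in siEF, 70, 63 and 63 in siNEG and 49, 48 and 41 in Media. The siEF libraries again stood below all others, and replicate 3 was the lowest at 0.171 CPM beside 0.614 and 0.784 in the other siEF libraries. Silencing lowered MYCN by a log2FC of -2.00 relative to siNEG (SE 0.361, adjusted P = 0.000101), with a wide 95% interval from -2.77 to -1.24. Without siEF replicate 3 the log2FC was -1.55 (adjusted P = 0.000261), and without siEF replicate 2 it was -2.37 (adjusted P = 6.6e-05).

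MYCL, the remaining family member, first described in lung cancer, lies on chromosome 1 (minus strand, 39895428 to 39902256). It was at 2.57, 3.09 and 2.88 CPM in siEF, 3.48, 3.21 and 3.37 in siNEG and 2.58, 2.25 and 2.27 in Media. The siEF libraries lay below siNEG and overlapped Media, and siNEG lay above Media. Relative to siNEG the log2FC was -0.24 (SE 0.168, adjusted P = 0.206), with an interval from -0.60 to 0.12.

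MAX is the obligate partner of the MYC proteins and also a partner of the antagonists. It spans 65006174 to 65102695 on the minus strand of chromosome 14 and was at 48.2, 43.9 and 47.1 CPM in siEF, 41.9, 43.4 and 44.7 in siNEG and 50.2, 42.7 and 46.5 in Media. The 3 groups overlapped. In siEF against siNEG its log2FC was 0.10 (SE 0.0658, adjusted P = 0.178), with an interval from -0.04 to 0.24 that does not reach the size of the fall in MYC. FNTB, on the opposite strand over 56479 bases of MAX, fell by 0.80 on the log2 scale. The strand setting of the counting is not given in the sources used here, so reads of overlapping genes cannot be told apart.

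Among the antagonists, MXD4 moved the most. MXD4 is a MAX-binding repressor associated with differentiation and exit from the cell cycle, on chromosome 4 (minus strand, 2247432 to 2262109). It had 1488, 1126 and 1503 counts in siEF, 140, 177 and 149 in siNEG and 214, 198 and 153 in Media. In CPM it was at 53.8, 55.2 and 51.5 in siEF, 4.42, 5.22 and 4.78 in siNEG and 6.99, 6.28 and 5.34 in Media. The siEF libraries stood far above the 6 others, and siNEG was just below Media. MXD4 thus rose by a log2FC of 3.47 against siNEG (SE 0.0903, adjusted P = 5.74e-15).

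MNT is the broadly expressed antagonist, on chromosome 17 (minus strand, 2384073 to 2401104). It was at 68.9, 66.9 and 68.1 CPM in siEF, 36.1, 32.6 and 31.9 in siNEG and 38.7, 35.6 and 37.1 in Media. The siEF libraries were above all others, and siNEG overlapped Media. Its rise against siNEG was a log2FC of 1.02 (SE 0.0606, adjusted P = 1.58e-10), just past the cut-off of 1 for a target. It passed the test under all 17 alternatives, with values from 0.98 to 1.11, but was no longer a target without siNEG replicate 2 (0.99), without siNEG replicate 3 (0.98) or without a filter on low counts (0.98).

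MXI1 encodes a further MAX-binding repressor, on chromosome 10 (plus strand, 110207605 to 110287365). It was at 24.3, 23.0 and 23.5 CPM in siEF, 17.4, 15.2 and 16.3 in siNEG and 19.3, 22.4 and 19.5 in Media. The siEF libraries were the highest, siNEG the lowest and Media between them, without overlap. Against siNEG this was a log2FC of 0.54 (SE 0.0774, adjusted P = 9.29e-06).

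MXD1, the founding member of the MXD group, spans 69897688 to 69942945 on chromosome 2. It was at 3.87, 5.0 and 4.22 CPM in siEF, 2.28, 2.53 and 2.82 in siNEG and 1.21, 2.54 and 2.31 in Media. The siEF libraries were above the rest, and Media replicate 1 stood apart below the other Media libraries. MXD1 rose by a log2FC of 0.77 against siNEG (SE 0.227, adjusted P = 0.00604). This call was lost without siEF replicate 2 (adjusted P = 0.0288), siEF replicate 3 (0.0144), siNEG replicate 1 (0.0312) or siNEG replicate 2 (0.0201), with log2FC values from 0.66 to 0.79. SNRNP27, which shares 7888 bases with MXD1 on the same strand, fell by 0.55 on the log2 scale.

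MXD3, whose level is known to peak in dividing cells, lies on chromosome 5 (minus strand, 177301461 to 177312757). It was at 3.14, 2.84 and 3.74 CPM in siEF, 5.18, 3.60 and 4.74 in siNEG and 6.07, 7.01 and 6.43 in Media. The siEF libraries overlapped siNEG, through siNEG replicate 2, and lay below Media. Its log2FC against siNEG was -0.46 (SE 0.165, adjusted P = 0.0187), which did not pass. Without siNEG replicate 2 it was -0.61 (adjusted P = 0.00334), and without any filter on low counts -0.50 (adjusted P = 0.00824). MXD3 overlaps RAB24 over 2284 bases on the same strand (log2 fold change 0.06, adjusted P = 0.629) and PRELID1 over 3151 bases on the opposite strand, which fell by 0.94 on the log2 scale.

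MLX, the MAX-like partner, lies on chromosome 17 (plus strand, 42567072 to 42573239). It was at 42.1, 40.7 and 42.1 CPM in siEF, 53.0, 55.2 and 48.8 in siNEG and 60.8, 60.6 and 62.0 in Media. The groups were ordered without overlap, with siEF the lowest and Media the highest. MLX fell against siNEG by a log2FC of -0.33 (SE 0.0574, adjusted P = 6.96e-05), a fall to 79.5% of the siNEG level. PSMC3IP, on the opposite strand over 930 bases of MLX, fell by 1.98 on the log2 scale. The other 10 genes annotated over a member, among them CASC11 at MYC and MYCNOS at MYCN, had at most 17 counts in any library.

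The comparison of siNEG with Media asked whether these genes differed between cells given a nonspecific siRNA and the Media cells. The parts of the siRNA and of other handling in such differences were not tested. No member was higher in siNEG (beside 3.83% of all genes), and 1 was lower (beside 5.96%). Of the members, 1 was higher at an unadjusted P under 0.05 and 5 were lower. The share of all genes at that cut-off is not given here, so these counts are no result about the set. DESeq2 called 0 members higher and 2 lower, and 1912 genes in either direction, of 29052 with at least 1 count. Genes left without an adjusted P were not taken out of the 29052, so it gives no share of genes tested. No member was a target, beside 0.162% of all genes higher and 0.267% lower. The member that passed was MXI1, at a log2FC of -0.33 (SE 0.0772, adjusted P = 0.00724). The call was lost in 8 of 17 alternatives, among them the fits without siEF replicate 1, siEF replicate 3, Media replicate 2, siNEG replicate 2 or siNEG replicate 3, where adjusted P values were between 0.0118 and 0.0484. MLX (-0.22, adjusted P = 0.0107), MXD4 (-0.37, adjusted P = 0.0247), MXD3 (-0.53, adjusted P = 0.0238) and MYCL (0.50, adjusted P = 0.0504) did not pass. MYC differed by 0.09 (SE 0.0544, adjusted P = 0.279), with an interval from -0.02 to 0.21.

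Against Media, which shares the siEF libraries with the comparison against siNEG, 3 members were higher in siEF (beside 33.6% of all genes) and 4 were lower (beside 32.3%). Targets were 2 higher members, MXD4 and MXD1, beside 17.4% of all genes, and 2 lower members, MYC and MYCN, beside 12.5%. MXD1 still passed the test but was no longer a target without Media replicate 1, where its log2FC was 0.83 (adjusted P = 0.00179), or without siEF replicate 2, where it was 0.9987 (adjusted P = 0.00279). In this comparison the log2FC was -1.16 for MYC (adjusted P = 1.34e-11), -1.59 for MYCN (adjusted P = 0.00103) and 3.10 for MXD4 (adjusted P = 1.4e-14). MXD1 was at 1.10 (adjusted P = 0.000448), MNT at 0.87 (adjusted P = 1.09e-09) and MLX at -0.55 (adjusted P = 1.81e-07). MXD3 fell against Media by a log2FC of -0.99 (adjusted P = 3.4e-05), with values from -1.12 to -0.90 over the alternatives and so on either side of the target cut-off, and MXI1 at 0.21 did not pass (adjusted P = 0.0211). For both genes the 3 siNEG libraries lay below the 3 Media libraries, and the call in siEF differed between the controls. MXI1 passed against Media with upper quartile scaling, with at least 10 counts required in every library or without Media replicate 2, where it was at 0.27 (adjusted P = 0.00685).

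**Figure D2:**
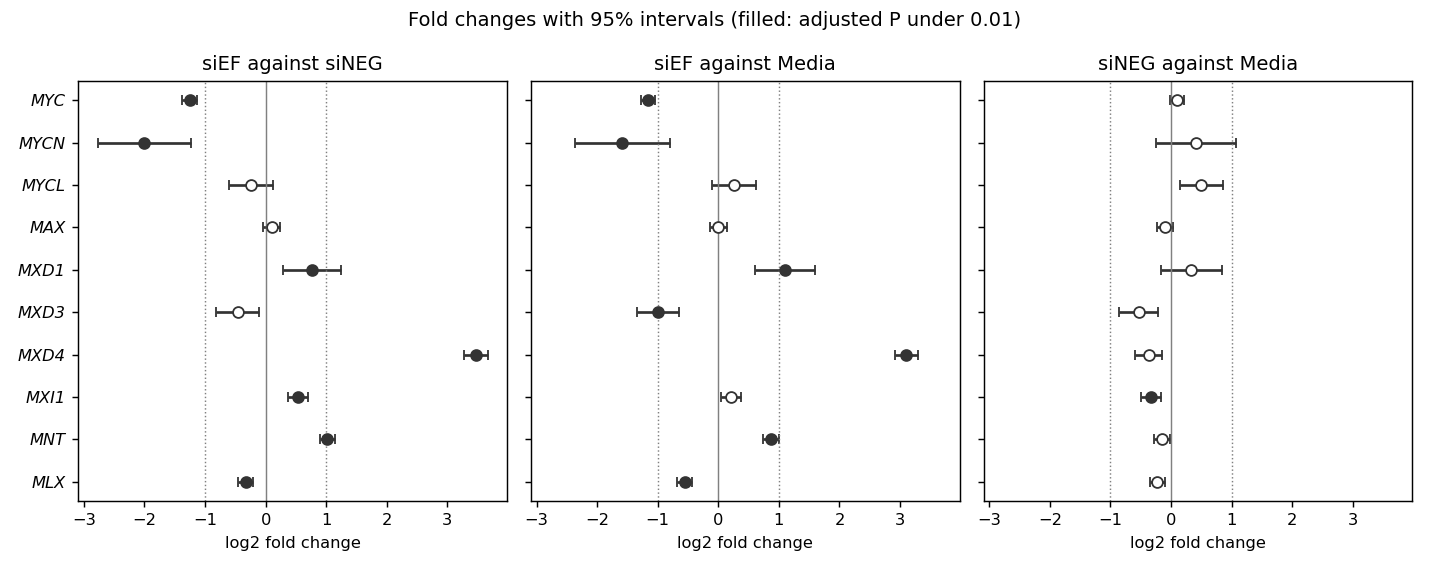
Log2 fold changes (horizontal axes) of the 10 members in siEF against siNEG, siEF against Media and siNEG against Media, with 95% intervals, filled where the adjusted P was under 0.01, and dotted lines at -1 and 1. MXD4 stands at 3.47 and 3.10 in the siEF comparisons, MYC at -1.25 and -1.16, and MXI1 is the only filled point in siNEG against Media.

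Levels were compared between genes as CPM per kilobase of the canonical transcript's exons. In siNEG, MYC was the most abundant member at 36.7 ± 2.03 (SD, n = 3), followed by MLX at 22.2 and MAX at 21.6, which did not differ beyond their spread. MNT at 6.81, MXI1 at 4.69, MXD3 at 4.22, MXD4 at 1.24, MYCL at 0.952, MYCN at 0.777 and MXD1 at 0.458 followed, with MXI1 and MXD3 within their spread. In Media the first 4 were in the same order, from MYC at 34.4 ± 1.70 (SD, n = 3) to MNT at 7.54. In siEF the order was MAX at 23.1, MLX at 17.6, MYC at 15.4, MXD4 at 13.8 and MNT at 13.8, then MXI1 at 6.81, MXD3 at 3.04, MYCL at 0.807, MXD1 at 0.786 and MYCN at 0.200. MXD4 and MNT, as well as MYCL and MXD1, did not differ there beyond their spread. The places of several members, among them MAX, MXD3 and MXD4, depend on the exon length. Over the union of all annotated exons MAX stood at 7.41 in siEF, within the spread of MNT at 7.81 and MXD4 at 7.78. It was below MLX at 9.78 and MYC at 9.39, which did not differ beyond their spread. In siNEG the union lengths put MLX at 12.3 above MAX at 6.92, and MXI1 at 2.76 above MXD3 at 0.950, beyond their spread. With these lengths MYCN at 0.737, MXD4 at 0.699 and MYCL at 0.675 did not differ beyond their spread in siNEG.

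Summed by role, the RNA of MYC, MYCN and MYCL per kilobase was 16.1, 17.5 and 15.7 in siEF, 38.4, 36.3 and 40.5 in siNEG and 37.6, 34.2 and 35.2 in Media. MYC made up 93.9% of that sum in siEF and 95.5% in siNEG. The sum over MXD1, MXD3, MXD4, MXI1 and MNT was 38.5, 38.0 and 38.2 in siEF, 18.8, 16.2 and 17.3 in siNEG and 21.2, 22.4 and 21.0 in Media. The siEF libraries lay below all others for the activators and above all others for the antagonists. The ratio of activator to antagonist RNA was 0.430 ± 0.0264 (SD, n = 3) in siEF, 2.21 ± 0.144 (SD, n = 3) in siNEG and 1.66 ± 0.126 (SD, n = 3) in Media. With union exon lengths it was 0.484, 2.75 and 2.13. MXD4 held 36.1% of the antagonist RNA in siEF and 7.18% in siNEG, while MNT held 36.1% and 39.1%. These sums are of RNA and not of protein, they restate the genes' own fold changes, and no test was applied to them.

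**Figure D3:**
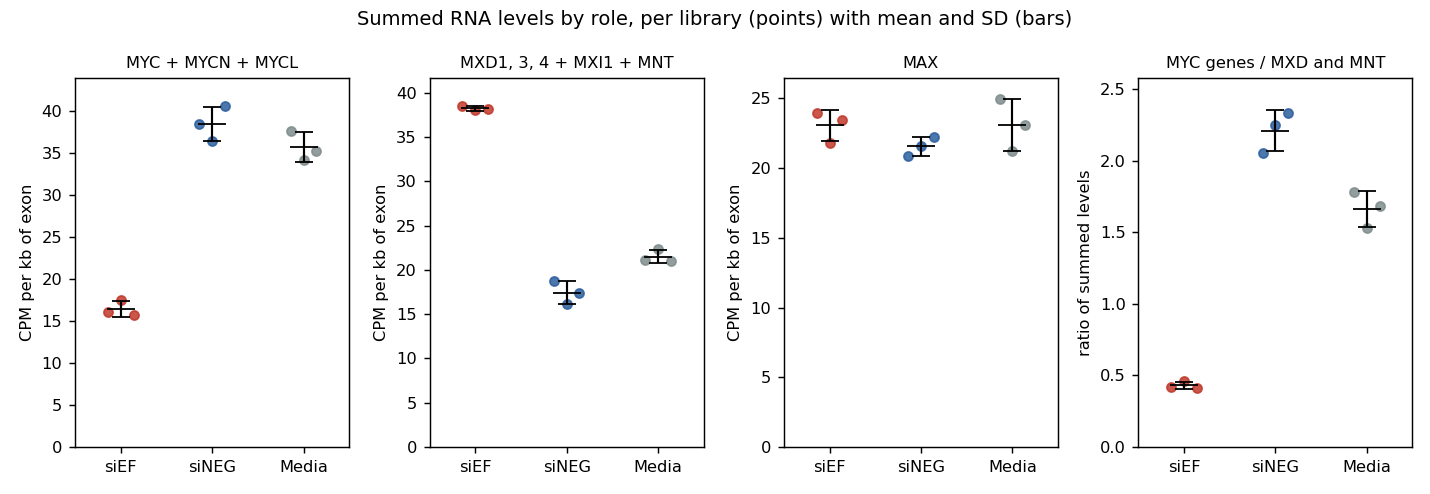
Summed levels in CPM per kilobase of canonical exon for the MYC genes, for the MXD genes with MXI1 and MNT, and for MAX, and the ratio of the first to the second sum (vertical axes from 0), in each library (points) with the mean and SD of 3 libraries (bars). The ratio was between 0.412 and 0.460 in siEF and at least 1.53 in each of the 6 other libraries, while MAX overlapped between the groups.

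The remaining members of the network are MGA, a MAX partner in a repressive Polycomb complex, and the MLX partners MLXIP and MLXIPL. MLXIP was at 136, 135 and 132 CPM in siEF and at 62.8, 67.6 and 66.0 in siNEG, without overlap. Its log2FC was 1.04 (SE 0.0467, adjusted P = 4.6e-12), in the opposite direction to that of MLX. MLXIPL had 30, 29 and 40 counts in siEF and 10, 18 and 5 in siNEG, and a log2FC of 1.92 (SE 0.415, adjusted P = 0.000564). MGA fell by a log2FC of -0.50 (SE 0.065, adjusted P = 3.14e-06). TXNIP, which restrains glucose uptake and is the best-known gene driven by MLX with its partners, was at 115, 113 and 108 CPM in siEF, 63.0, 61.9 and 60.9 in siNEG and 43.3, 38.0 and 35.0 in Media. TXNIP rose by a log2FC of 0.86 (SE 0.0638, adjusted P = 2.95e-09) against siNEG, and siNEG was itself above Media by 0.68 (SE 0.0661, adjusted P = 2.99e-06). ARRDC4, another such gene, differed by 0.30 (adjusted P = 0.0531) in siEF against siNEG and by 0.64 (adjusted P = 0.00416) in siNEG against Media.

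The lists of MYC-regulated genes, like the other lists, were drawn up with earlier results of these data known, and their counts are a description. Of 26 genes known to be activated by MYC, 23 fell in siEF against siNEG, beside 31.7% of all genes. As targets, 14 of the 26 fell, beside 11.7% of all genes. Of the 26, 0 rose (0 also at an unadjusted P under 0.05, and 0 by DESeq2) and 3 did not pass. The median log2 fold change of the 26 was -1.17, beside 0.05 over all genes tested. The largest falls were in CDC25A, a phosphatase that promotes cell cycle entry (-2.58), TERT, the catalytic subunit of telomerase (-2.40), and TFRC, the transferrin receptor (-2.10). TERT was a minor transcript, with 12, 4 and 17 counts in siEF and 85, 68 and 64 in siNEG (SE 0.311). CCND2 (-1.24, adjusted P = 0.0283), DNPH1 (-0.29, adjusted P = 0.0384) and APEX1 (-0.08, adjusted P = 0.151) did not pass. Of 10 genes known to be repressed by MYC, 9 were tested, of which 8 rose, beside 33.6% of all genes, 0 fell (0 also at an unadjusted P under 0.05, and 0 by DESeq2) and CEBPA did not pass (0.56, adjusted P = 0.0283). The median was 1.27, and the largest rises were in THBS1, an inhibitor of angiogenesis (6.17), NDRG1, a differentiation and stress gene (3.54), and CDKN1A, the inhibitor p21 (1.59). CDKN2B was listed at 0 in all 9 libraries. In siNEG against Media, where 3.83% of all genes rose and 5.96% fell, 1 of the 26 activated genes rose and 3 fell, while 4 of the 9 repressed genes rose and 1 fell. The 4 that were higher in siNEG than in Media were THBS1 (1.33), CDKN1A (0.71), CDKN1B (0.53) and PDGFRB (0.38), the last 2 named after their values were seen. In siEF against siNEG the FLI1 and MYC transcripts both fell. The parts of EWS::FLI1 and MYC in the changes of the listed genes in that comparison cannot be told apart.

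**Figure D4:**
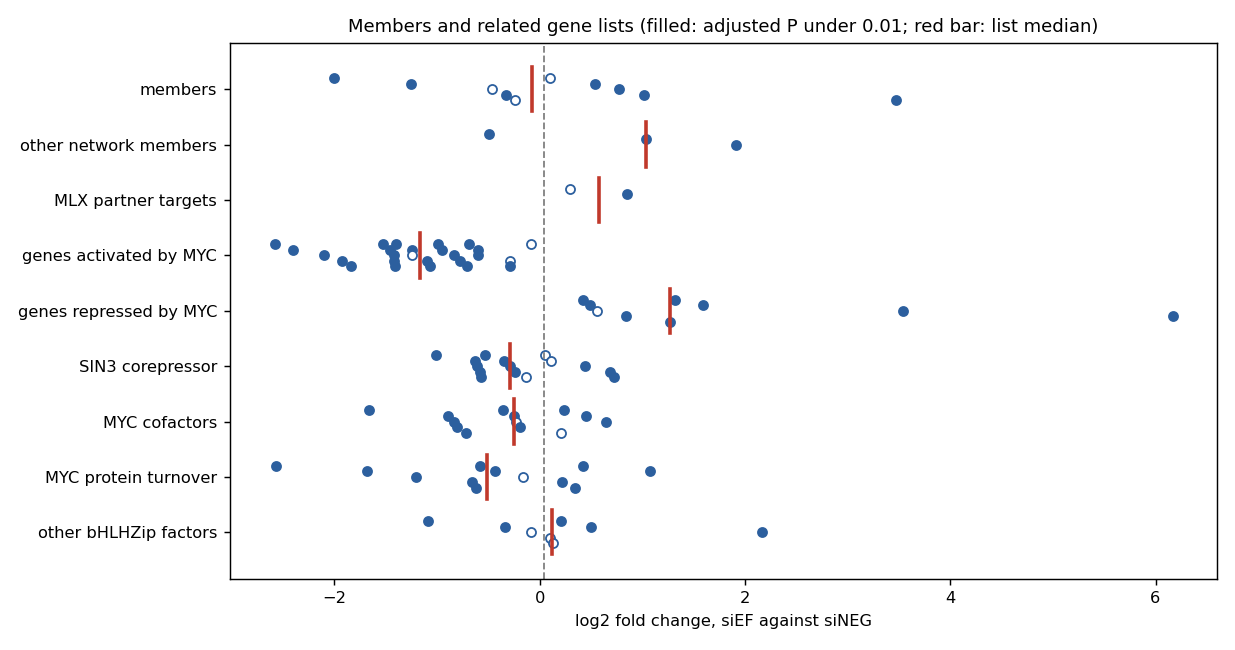
Log2 fold changes in siEF against siNEG (horizontal axis) of the members and of the related gene lists, 1 point a gene, filled where the adjusted P was under 0.01, with each list's median (red bar) and the median of all genes tested (dashed line). The genes activated by MYC lie to the left with a median of -1.17 and those repressed by MYC to the right with a median of 1.27, while the members themselves spread to both sides.

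SIN3 is the corepressor with which MXD proteins and MNT act. Of 15 genes of its complex, 3 rose (beside 33.6% of all genes), 9 fell (beside 31.7%) and 3 did not pass, with a median of -0.29 beside 0.05 over all genes tested. The scaffold SIN3B (0.72) and the subunits ARID4A (0.69) and ARID4B (0.44) rose, and SAP30 (-1.01), the deacetylase HDAC2 (-0.63) and SUDS3 (-0.61) had the largest falls. Of 13 MYC cofactor genes, 3 rose and 8 fell, beside the same 33.6% and 31.7% of all genes, and 2 did not pass, with a median of -0.25. The acetyltransferases CREBBP (0.65) and EP300 (0.23) rose with BPTF (0.45), a chromatin remodeler subunit, and the falls were led by the helicases RUVBL1 (-1.66) and RUVBL2 (-0.89) and by HCFC1 (-0.84).

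Of 12 genes tested whose products control MYC protein stability, 4 rose, a share near the 33.6% of all genes, 7 fell, beside 31.7% of all genes, and 1 did not pass, with a median of -0.51. USP36 was not analysed here. USP28, a deubiquitinase that stabilizes MYC, rose (1.08), as did the kinase GSK3B (0.42) and the ubiquitin ligase TRIM32 (0.35). The largest falls were in PLK1 (-2.57), CIP2A (-1.68) and AURKA (-1.21), which protect MYC or MYCN protein and are also genes of cell division. FBXW7, the ligase that marks phosphorylated MYC for degradation, fell by 0.62 on the log2 scale and was named after its value was seen. The level of MYC protein was not measured. Of 8 other basic helix-loop-helix leucine zipper genes tested, 3 rose, 2 fell and 3 did not pass, with a median of 0.12, and these shares were near the 33.6% and 31.7% of all genes. TFEB (2.16) and TFE3 (0.51), regulators of lysosomal genes, and SREBF2 (0.21), a regulator of cholesterol synthesis, rose, while MITF (-1.09) and TFAP4 (-0.34) fell. PVT1, the noncoding neighbor of MYC, differed by -0.25 (adjusted P = 0.0184) and did not pass, and the other 5 neighboring transcripts were too low to be tested.

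Over the 9 libraries, the genes most like MYC among 10891 others were SCLY, ODC1 and POLD3, with root mean square differences of 0.045, 0.0477 and 0.0517 on the centered log2(CPM + 1) scale. ODC1, the rate-limiting enzyme of polyamine synthesis, was on the list of genes activated by MYC, and its log2 fold change was -1.25 in siEF against siNEG. Those most like MXD4 were VSTM2L (0.0936), RHOBTB1 (0.107) and GATA2 (0.11). VSTM2L was at 86.7 CPM in siEF and 8.08 in siNEG, GATA2 at 162 and 16.9, and RHOBTB1 at 23.7 and 1.74. Because the groups set most of this likeness, it is given as a description with no test.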

How the data were processed

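Polyadenylated RNA of 3 siEF, 3 siNEG and 3 Media samples was sequenced, with group and replicate number as the labels give them. The authors mapped reads to hg38 with STAR and estimated expression with RSEM, and deposited its expected counts for each gene, neither scaled for depth nor pooled. The submitters' processing notes also name cutadapt 2.10 and DESeq2 1.32.0. The annotation release and the strand setting are not given in the sources used here. The extraction label names a small RNA kit beside polyadenylated RNA, and which was used is not settled.

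Expected counts were rounded, filtered (filterByExpr, 16093 genes), TMM-scaled and tested in 1 fit over 9 libraries in edgeR 4.0.16 (R 4.3.3) by its quasi-likelihood test, adjusted by Benjamini-Hochberg over all genes tested. SE is the size of the log2FC over the root of the F statistic, and intervals are 95%. CPM used TMM-scaled library sizes. Exon lengths and positions came from GENCODE release 44 (GRCh38), which holds 99.5% of the identifiers.

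Replicates of a group differed beyond counting noise (chi-square per degree of freedom 3.57 to 23.2). Same-numbered libraries did not deviate together (r between -0.138 and 0.112 over 9 pairs), so numbers were not treated as pairs. The script was tested on simulated data. Members and lists were chosen with earlier results of these data known. The genes named are all members, FLI1, NR0B1 and PHLDA1, up to 3 list genes with the largest changes in each direction past the test, MGA, MLXIP, MLXIPL, TXNIP and ARRDC4, genes overlapping a member, and the 3 genes most like MYC and MXD4. Genes that did not pass in the 2 lists of MYC-regulated genes, the cell type markers, CDKN1B, PDGFRB and FBXW7 were named after their values were seen. Alternatives were upper quartile and RLE scaling, DESeq2 1.42.0, 2 other filters and 2 other cut-offs, unrounded counts, a replicate block, only the 6 libraries compared, and each library left out in turn. Exon unions and target counts were added after the data were seen. A marker of another cell type is not reported here and was left out of its list.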

Additional observations from a re-analysis of the deposited data

How the results depend on the processing

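No member reversed its direction past the test under any alternative run. Of 506 refits of the members' fold changes, 487 kept their side of the threshold. In siEF against siNEG the counts of members that passed stayed within 1.5 times of those given, and the higher targets became 1 without a filter on low counts, where MNT was lost, and ranged from 1 to 2 over the left-out libraries. The lower targets became 1 with at least 10 counts in every library, where MYCN could not be tested because siEF replicate 3 had 5 counts. In siNEG against Media, the count of lower members was 4 at an adjusted P under 0.05 and 4 at an unadjusted P under 0.01 (with 1 higher), 2 by DESeq2, 0 with upper quartile scaling, 0 with only the 6 libraries compared, 0 with the replicate block, and 0 to 2 over the left-out libraries. The replicate block changed no other member call, and libraries share only a number. For siNEG against Media the shares of all genes at the looser cut-offs are not given, so those member counts are no result about the set. DESeq2 passed 1912 genes there, in either direction, of 29052 with at least 1 count, from which genes without an adjusted P were not taken out. Upper quartile scaling moved the median of all genes by 0.0863 in siEF against siNEG and the share of higher genes among those passed to 56.7%. Depth limits MYCN, MYCL, MXD1 and MXD3 most, the 4 members with the fewest counts, whose intervals in siEF against siNEG were the widest.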
